A study of Mus musculus with 74 samples.

Results

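The regions described here were pairs of neighbouring ChIP-seq peaks of one mouse KRAB zinc finger protein (KRAB-ZFP) that lay about as far apart as the ends of a retroviral provirus. A pair was formed by consecutive 200 bp windows carrying the same KRAB-ZFP name on one chromosome whose midpoints, the peak summits, were 3000 to 9000 bp apart. There were 1424 such pairs, made of 2814 windows, or 5.31% of the 53011 windows of 67 KRAB-ZFPs. A window could belong to a pair on each side, and 34 windows did. The pairs were chosen by the distance between peak positions alone, so the spacing is a description, and the sequence of the windows, their orientation and the peaks of other KRAB-ZFPs were not used by the choice.

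The study measured where each KRAB-ZFP binds by chromatin immunoprecipitation of an epitope-tagged, overexpressed protein followed by sequencing. Of the 67 KRAB-ZFPs, 58 were expressed in F9 cells, a mouse embryonal carcinoma line, from stably integrated vectors, 18 of them with an N-terminal FLAG tag and 40 with an HA tag. The other 9 carried a C-terminal HA tag in B6 embryonic stem (ES) cells. Each KRAB-ZFP had 1 sample, so no single value has a replicate error, and the ES samples differed from all F9 samples in the antibody, the control, the mapping settings and the lack of an enrichment threshold, while HA tags and the looser of the p thresholds were also used in part of the F9 samples. Summed over its peaks, a KRAB-ZFP had between 1681 and 540220 tags. The depth of the libraries was not known here, and a missing peak is therefore not a missing binding site.

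KRAB-ZFPs are DNA-binding repressors that recruit the corepressor KAP1 (TRIM28) and histone methylation through their KRAB domain, and many of them bind retrotransposons in early embryonic cells. A provirus, the inserted copy of a retrovirus or of an LTR retrotransposon, has the order 5′ long terminal repeat (LTR), internal region, 3′ LTR. Both LTRs are copied from one template and are the same at insertion, so that later differences between them accumulate with time. The integrase leaves a short duplication of the target DNA on both sides of the provirus, and reverse transcription starts at a primer binding site just inside the 5′ LTR, which begins with TGG because it pairs with the CCA end of a transfer RNA. A KRAB-ZFP that binds an LTR therefore has a pair of sites per provirus, in the same orientation and one element length apart, while one that binds the internal region has a single site.

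The following sequences show these features at the pair with the highest summed peak score for each of the 5 KRAB-ZFPs with at least 3 LTR-like pairs, a call explained below. All are from mm9 and are written on the strand of the element. The element bound by Gm21082 lay at chr8:119420166-119427326 on the plus strand, within the gene 2310061C15Rik and antisense to it. That of Gm13157 lay at chr12:18040405-18045302 on the minus strand, that of Zfp429 at chr15:103437124-103441505, that of Zfp961 at chr6:68192379-68202279 and that of Gm13152 at chr11:82910815-82918644, the last 3 on the plus strand and, like that of Gm13157, within no protein-coding gene. In the start and end lines the capitals mark the duplicated target bases, and in the primer lines they mark the 18 bases from TGG.
Gm21082 5′ LTR start: GAGAGTtgttgggagccgcgcccaca
Gm21082 5′ LTR end and primer site: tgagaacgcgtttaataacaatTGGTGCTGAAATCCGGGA
Gm21082 3′ LTR end: tgagaacgcgtttaataacaGAGAGT
Gm13157 5′ LTR start: GCTTCtgtgaggagccgcccttgca
Gm13157 5′ LTR end and primer site: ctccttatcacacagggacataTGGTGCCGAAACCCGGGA
Gm13157 3′ LTR end: actccttatcacacaggacaGCTTC
Zfp429 5′ LTR start: AACAGGtgttgggagccgcccccaca
Zfp429 5′ LTR end and primer site: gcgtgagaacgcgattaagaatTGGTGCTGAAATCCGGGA
Zfp429 3′ LTR end: gcgtgagaacgcgattaagaAACAGG
Zfp961 5′ LTR start: TTGTACtgccgcgcctgcagcagaaa
Zfp961 5′ LTR end and primer site: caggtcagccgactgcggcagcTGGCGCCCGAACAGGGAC
Zfp961 3′ LTR end: caggtcagccgactgcggcaTTGTAC
Gm13152 5′ LTR start: GACTCTtgccacacactccggtcgag
Gm13152 5′ LTR end and primer site: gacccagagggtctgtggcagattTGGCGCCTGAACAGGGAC
Gm13152 3′ LTR end: ggcccagagggtctgcggcaGACTCT

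In each of the 5 elements the bases before the 5′ LTR were repeated after the 3′ LTR, 6 bases long in 4 of them and 5 in that of Gm13157. The start of the LTR was TG in all, and the last bases were CA except in the Zfp429 element, which ended in GA. The LTRs of this Gm21082 element were 337 bp each and identical. The peak had 88 tags in the 5′ window and 71 in the 3′ window. The LTRs of the Zfp429 element were 475 bp each and 99.8% identical, with 124 tags in the 5′ and 144 in the 3′ window. The Gm13157 element had LTRs of 371 and 346 bp with 90.3% identity, and 173 and 130 tags. By tags the higher window was thus the 5′ one in the Gm21082 and Gm13157 elements and the 3′ one in the Zfp429 element. By fold enrichment over the local control it was the 3′ one in each. The 5′ and 3′ values were 37.2 and 47.6 for Gm21082, 151 and 171 for Gm13157, and 39.4 and 45.0 for Zfp429. Reads within the identical LTRs of the Gm21082 element fit both equally well. The same holds for reads within the Zfp429 window, which was the same in both LTRs. The counts and fold values of these elements therefore do not rank their windows.

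The 5′ summit window is printed for the 4 KRAB-ZFPs with the most LTR-like pairs, because it holds the bases under the peak. Capitals mark bases outside the LTR for Gm21082 and Zfp961, where the stretch within the LTR was the same in the 3′ copy. For Gm13157, whose window is shown in both copies, the capitals mark the 9 bases that differ between them. The Zfp429 window was the same in both LTRs.
Gm21082 5′ summit window: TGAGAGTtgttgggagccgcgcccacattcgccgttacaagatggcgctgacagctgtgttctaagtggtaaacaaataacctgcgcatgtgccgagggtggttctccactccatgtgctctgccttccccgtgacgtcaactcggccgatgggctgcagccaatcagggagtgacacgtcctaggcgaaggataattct
Gm13157 5′ summit window: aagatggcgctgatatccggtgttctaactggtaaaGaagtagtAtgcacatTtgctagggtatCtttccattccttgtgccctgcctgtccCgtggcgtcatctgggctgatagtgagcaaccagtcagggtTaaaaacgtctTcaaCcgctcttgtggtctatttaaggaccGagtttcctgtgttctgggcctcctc
Gm13157 same stretch of the 3′ LTR: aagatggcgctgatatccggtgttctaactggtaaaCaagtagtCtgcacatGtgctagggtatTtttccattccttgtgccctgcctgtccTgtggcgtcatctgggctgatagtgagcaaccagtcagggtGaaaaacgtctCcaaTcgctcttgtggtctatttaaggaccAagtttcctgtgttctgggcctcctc
Zfp429 5′ summit window: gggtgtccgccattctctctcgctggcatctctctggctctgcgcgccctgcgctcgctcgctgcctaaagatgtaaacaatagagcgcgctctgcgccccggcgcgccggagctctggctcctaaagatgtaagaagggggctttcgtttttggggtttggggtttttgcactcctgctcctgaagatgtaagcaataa
Zfp961 5′ summit window: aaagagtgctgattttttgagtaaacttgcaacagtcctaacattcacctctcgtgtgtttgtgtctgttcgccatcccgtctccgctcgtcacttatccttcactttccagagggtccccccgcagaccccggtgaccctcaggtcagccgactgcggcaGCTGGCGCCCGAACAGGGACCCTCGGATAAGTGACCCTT

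The pairs were spread unevenly over KRAB-ZFPs. Of the 67, 36 had at least 1 pair and 31 had none, and 16 had 10 or more. Gm21082 alone contributed 670 of the 1424 pairs, which held 1334 of its 2211 windows (60.3%, 95% Wilson interval 58.3 to 62.4%). Intervals here cover counting error over windows or pairs only, not error between samples or, where pairs are pooled, differences between KRAB-ZFPs. Next came Gm13152 with 137 pairs, Gm14406 with 122, Gm14419 with 96, Gm13225 with 66 and Gm13157 with 55. Gm13251 had 39 pairs, Zfp961 had 34, Zkscan17 had 31, Zfp429 had 27 and Gm14412 had 25. Zfp457 had 16, Gm13154 and Gm13235 had 15 each, Gm14401 had 12 and Zfp661 had 11. As a share of a KRAB-ZFP's own windows, the pairs took up 24.8% in Gm13157 and 21.3% in Zfp429 but only 5.03% in Gm13152 and 4.204% in Gm14406. Pairs were found on 21 chromosomes, from 121 on chromosome 1 to 3 on the Y chromosome.

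**Figure D1:**
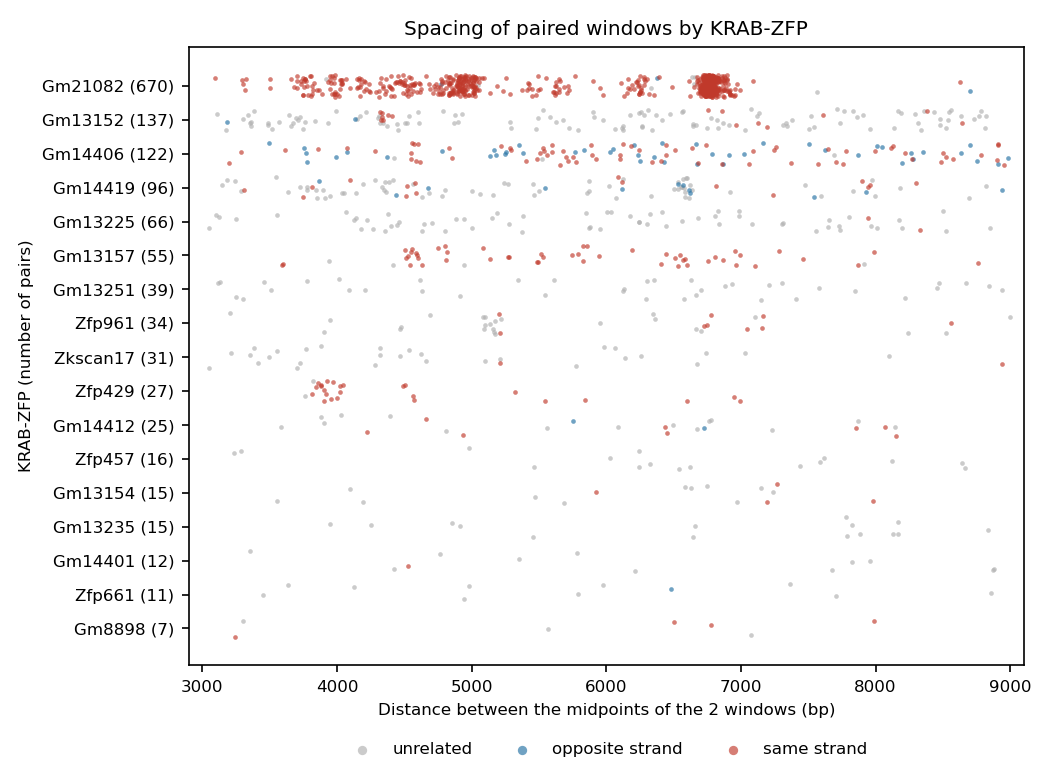
Distance between the summits of each pair in bp (x axis) for the 17 KRAB-ZFPs with at least 10 pairs or 3 same-strand pairs (y axis, with the number of pairs). Each point is 1 pair, spread vertically for legibility and coloured by whether its windows were alike on the same strand, alike on opposite strands or unrelated; the 670 pairs of Gm21082 form bands near 4900 and 6750 bp, whereas those of Gm13251, with no related pair, are scattered.

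The spacing of Gm21082 pairs fell into bands rather than over the whole range. Its median was 6324 bp with quartiles of 4858 and 6760 bp. In bins of 250 bp, 192 pairs (28.7%) lay at 6750 to 6999 bp and 134 (20.0%) at 6500 to 6749 bp, and 105 (15.7%) lay at 4750 to 4999 bp. No Gm21082 pair that was called LTR-like lay between 7000 bp and 8500 bp, and 1 lay above. Zfp429 pairs were shorter, with 13 of 27 at 3750 to 3999 bp and a median of 4003 bp. Gm13157 pairs were most frequent at 4500 to 4749 bp (11 of 55) and recurred at 6500 to 6999 bp, and 12 of the 34 Zfp961 pairs lay at 5000 to 5249 bp. At the limits of the range, the closest pairs inside were 3022 bp apart (Zfp46) and 9000 bp apart (Zfp961), and the closest outside were 2997 bp apart (Gm14412) and 9001 bp apart (Gm14406).

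The windows of a pair were then compared with each other. They were called related where their best local alignment had at least 100 columns and 80% identity, on the same or on the opposite strand. Of the 1424 pairs, 877 were related on the same strand, 67 on opposite strands and 480 were unrelated. Among 1771 pairs of consecutive same-name windows that lay farther apart, over 9000 and up to 30000 bp, 15.8% were related on the same strand, 14.7% on opposite strands and 30.4% in either direction. Of all related pairs at 3000 to 9000 bp 92.9% (91.1 to 94.4%) were on the same strand, against 51.8% (47.5 to 56.0%) of those farther apart. Without Gm21082 the share was 77.3% (72.1 to 81.8%) against 51.7% (47.4 to 56.0%). These intervals pool pairs of many KRAB-ZFPs as if independent, and the comparison with the KRAB-ZFP as the unit follows below. In pairs closer than 3000 bp, 38 of 158 pairs under 1000 bp and 48 of 254 pairs at 1000 bp or more were related on the same strand.

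The related pairs belonged to few KRAB-ZFPs. Gm21082 had 659 same-strand pairs of its 670, with 3 on opposite strands and 8 unrelated. Gm13157 had 51 of 55 and Zfp429 had 25 of 27, none of them on opposite strands. Zfp961 had 9 of 34, Gm13152 15 of 137, Gm14412 8 of 25, Gm13154 4 of 15 and Gm8898 4 of 7. Gm14406 differed from these, with 73 pairs on the same and 46 on opposite strands, or 46 of the 67 opposite-strand pairs of all KRAB-ZFPs, and Gm14419 had 16 and 12. The values of Gm14419 depended on the window, and with 600 bp in place of 200 bp it had 44 pairs on the same strand, 6 on opposite strands and 1 on both. In Gm13251, Zfp457 and Gm13235 no pair was related, and Gm13225 and Zkscan17 had 2 same-strand pairs each, Gm14401 had 1, and Zfp661 had 1 on opposite strands.

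Taking the KRAB-ZFP as the unit, the share of related pairs was compared between the distance classes. In the 18 KRAB-ZFPs with at least 5 pairs in both distance classes it was 29.1% ± 34.6 (SD) at 3000 to 9000 bp and 24.0% ± 29.98 farther apart. The mean difference was 5.10 percentage points, with a higher share at the shorter distance in 7 and a lower one in 6 KRAB-ZFPs (two-sided permutation test with sign flips, p = 0.130, adjusted p = 0.216 over 5 tests). With only peaks of a score over 100 and a fold over 20 the difference was 12.6 percentage points over 11 KRAB-ZFPs and passed the threshold (permutation test, adjusted p = 0.0313). That adjustment ran over fewer than 5 tests, because the comparison of F9 and ES samples had no value with these peaks. The share of same-strand pairs among related pairs was compared in 8 KRAB-ZFPs with at least 3 related pairs in both classes, and was 85.8% ± 17.9 (SD) against 60.6% ± 26.2. It was higher at the shorter distance in 6 of the 8 and lower in none, by 25.2 percentage points on average, which passed the threshold before but not after adjustment (exact two-sided permutation test, p = 0.0313, adjusted p = 0.156). The differences behind this mean were 46.6 points in Gm21082, 66.7 in Gm8898, 43.6 in Gm14412, 24.6 in Gm13152, 11.8 in Gm14419 and 8.39 in Gm14406. In Gm13157 and Zfp961 all related pairs were on the same strand in both classes, so their differences carry no sign. The other 6 all went the same way, and the p reached was therefore the smallest that this test could give. The share of related pairs was 32.7% ± 39.1 (SD, n = 16 KRAB-ZFPs) in F9 and 31.5% ± 24.5 (n = 3) in ES samples (exact permutation test, p = 0.912, adjusted p = 0.912). The cell line cannot be told apart from the antibody, the control, the mapping settings and the enrichment threshold in this comparison.

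**Figure D2:**
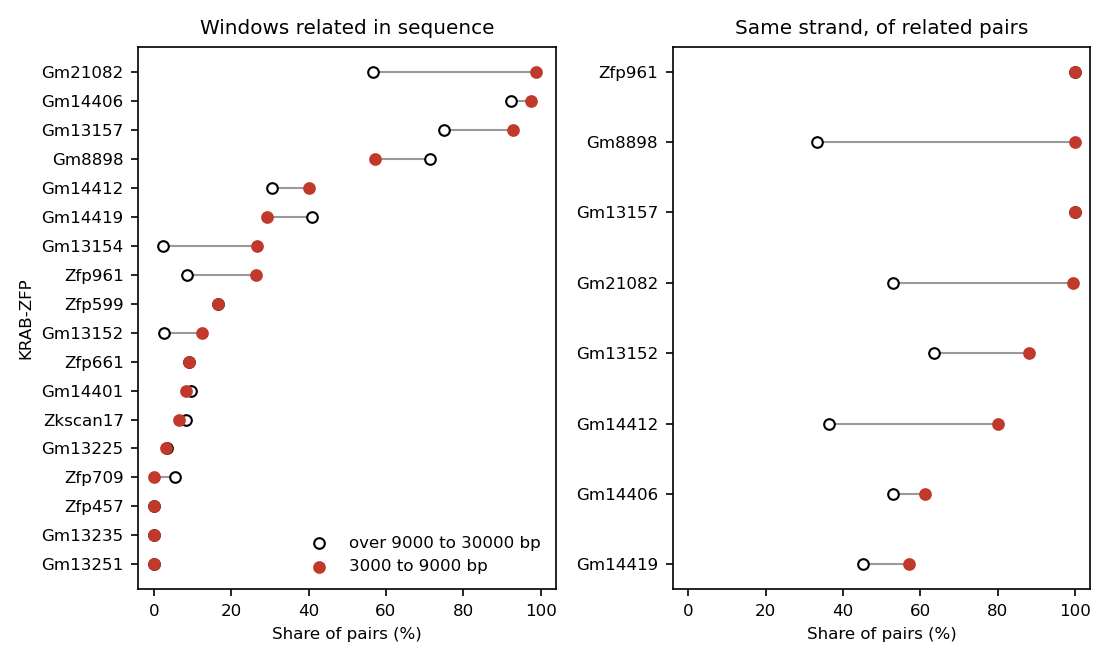
Share of pairs in percent (x axis) for each KRAB-ZFP tested (y axis), at 3000 to 9000 bp (filled) and over 9000 to 30000 bp (open), for all pairs with related windows (left, 18 KRAB-ZFPs) and for same-strand pairs among related ones (right, 8 KRAB-ZFPs). The lines join the values of one KRAB-ZFP; Gm21082 rises from 56.7 to 98.8% on the left and from 52.9 to 99.5% on the right, while Gm13251, Gm13235 and Zfp457 stay at 0% on the left.

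To see whether the same-strand pairs lay in the ends of proviruses, the repeat around both summits was extended over up to 1400 bp on each side. In 763 of the 877 pairs it spanned both summits, was 200 to 2000 bp long and stopped within that range. In 99 of the other 114 the likeness ran on to the limit, as in a longer repeat, and 61 of these were pairs of Gm14406. A bounded repeat was called LTR-like where it began with TG and ended with CA or GA on one of the strands and where the same 5 or 6 bases stood before its first and after its last copy. This held for 679 of 763 bounded pairs (89.0%, 86.6 to 91.0%), of which 666 had 6 and 13 had 5 duplicated bases. Duplications of other lengths were not searched, so elements with a shorter one are missing from this count. As a comparison, the bases on both sides of a single copy were searched in the same way and were the same in 5 of the 763 (0.655%). Among the pairs over 9000 to 30000 bp apart 5 were LTR-like, or 0.282% of all and 8.33% of the 60 bounded ones.

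The TGG of a primer binding site gave the LTR-like pairs a strand. It stood within the first bases inside one and not the other inner LTR end in 674 of the 679 pairs, and 358 elements read on the plus and 316 on the minus strand. Outside the outer ends TGG was found in 105 (15.5%). Most LTRs (632 of 679, 93.1%) ran from TG to CA, and 47 (6.92%) from TG to GA.

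Gm21082 accounted for 616 LTR-like pairs, or 90.7% of the total. Gm13157 had 28, Zfp429 had 19, Zfp961 had 9, Gm13152 had 4, Gm13150 had 2 and Gm13154 had 1. The 4 major groups differed in the length and the likeness of their LTRs. Gm21082 LTRs had a median length of 352 bp (316 to 514 bp) and were identical to each other in 420 of the 616 elements (68.2%, 64.4 to 71.7%). In Zfp961 elements the median length was 318 bp (316 to 1328 bp) and 7 of 9 had identical LTRs. Zfp429 LTRs were longer, 476 bp in the median (469 to 513 bp), and 2 of 19 were identical, although the median identity was 99.8%. Of the 28 Gm13157 elements none had identical LTRs. Their median identity was 94.6%, ranging from 89.2 to 98.3%, which was below the lower quartile of Gm21082 (99.7%) throughout. The TG to GA ends were found in 18 of the 19 Zfp429 elements, in 22 of the 616 Gm21082 elements and in 7 of the 28 Gm13157 elements.

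**Figure D3:**
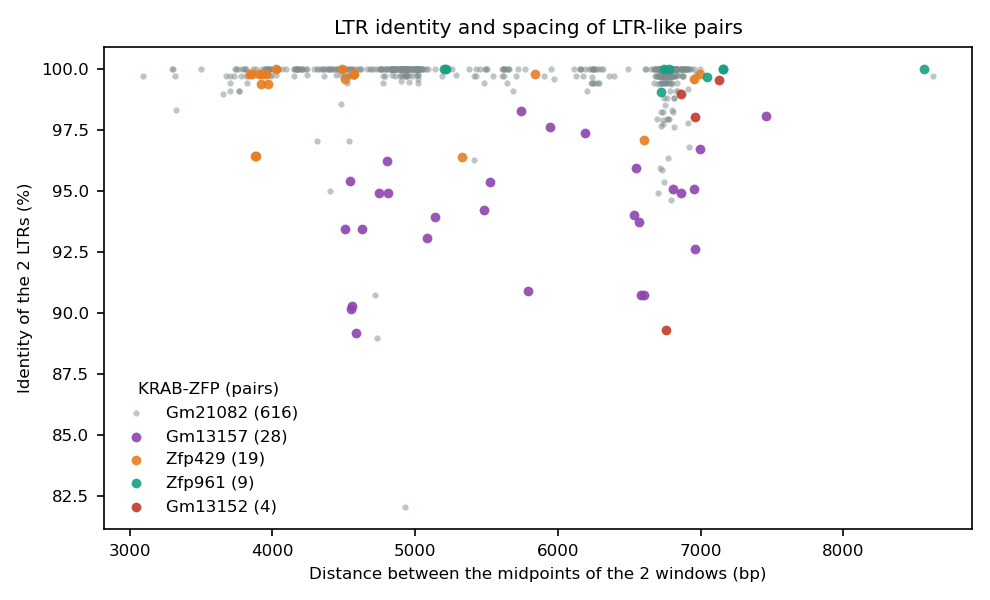
Identity of the 5′ and 3′ LTR in percent (y axis) against the distance between the summits in bp (x axis); each point is 1 LTR-like pair, coloured by KRAB-ZFP. Most Gm21082 points lie at 99 to 100% at all distances and the 28 Gm13157 points spread from 89.2 to 98.3%. Of the 19 Zfp429 points 10 lie below 4250 bp, and the others reach up to 6994 bp.

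The primer binding sites differed in frequency between the groups, and some were shared. The most frequent 18 bases from TGG are given below for each, since they bear on which elements were bound. The first of them was found in 508 of 615 Gm21082 elements with a strand (82.6%), the second, also of Gm21082, in 61 (9.92%), the third in 13 of 19 Zfp429 elements and the fourth in 6 of 9 Zfp961 elements. The second one was also the most frequent in Gm13157, where it stood in only 4 of 25 elements, with 17 different versions among them, and was that of the other 6 Zfp429 elements. The third one also stood in 13 of the 615 Gm21082 elements, among them the one printed above.
Gm21082 most frequent: TGGtgccgaattccggga
Gm21082 second: TGGtgccgaaacccggga
Zfp429 most frequent: TGGtgctgaaatccggga
Zfp961 most frequent: TGGcgccagaactgggac

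Within the LTR, the summits of one KRAB-ZFP clustered around one place, although single ones lay apart from it (32 to 252 bp in Gm21082). In Gm21082 elements the summit stood a median of 128 bp from the LTR start (quartiles 120 and 136 bp), in Gm13157 elements at 132 bp (105 and 146 bp) and in Zfp429 elements at 305 bp (265 and 313 bp). In Zfp961 elements it stood at 277 bp (272 and 284 bp) of an LTR of 318 bp, and in Gm13152 elements at 835 bp of an LTR of 859 bp. Both places are near the end of the LTR, which faces the internal region only in the 5′ LTR. The summits of both copies of an element lay a median of 12 bp apart in LTR coordinates for Gm21082, 16 bp for Gm13157, 15 bp for Zfp429 and 7 bp for Zfp961. They were within 20 bp of each other in 452 of 615 Gm21082 elements (73.5%). The same held for 15 of 25 Gm13157 elements (60%), 11 of 19 Zfp429 elements (57.9%) and 7 of 9 Zfp961 elements (77.8%). Reads from identical LTRs fit both copies equally well, so the summits of such copies are not independent.

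The tag counts of both windows of an LTR-like pair come from the same library and were compared by the strand of the element. For Gm21082, the 5′ window had 17 tags at the lowest, 36 in the median and 91 at the highest, and the 3′ window 16, 37 and 76. The 5′ window was the higher one in 271 elements and the 3′ window in 318. Only 7 of 615 pairs (1.14%) differed by more than 2-fold. Since reads that fitted several places equally well had been placed at 1 of them pseudo-randomly by the authors, identical LTRs share their reads, and so may those that differ at few bases. The median size of the log2 ratio was 0.263 in the 420 pairs with identical LTRs and 0.270 in the 196 with different ones, and the part of read placement in the even counts was not tested. In Gm13157, whose LTRs all differ, 7 of 28 pairs (25%) differed by more than 2-fold and the median size of the log2 ratio was 0.648.

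Zfp961 was the exception. The 5′ window had 66 tags at the lowest, 75 in the median and 126 at the highest, and the 3′ window 26, 46 and 53, so that the lowest 5′ count was above the highest 3′ count. The 5′ window was higher in 9 of 9 elements, with a median log2 ratio of 1.00. The 9 elements all lay on the plus strand. In the Zfp961 element printed above, 39 of the 200 bases of the 5′ window, shown in capitals, lay inside the element beyond the LTR and included its primer binding site, which the 3′ LTR lacks. That element was the longest of the 9, at 9901 bp against a median of 7095 bp. Its LTRs were 1328 bp long, against a median of 318 bp, and its primer site was found in 1 of the 9. Over the 5 KRAB-ZFPs with at least 3 stranded pairs the median log2 ratio of 5′ over 3′ tags was -0.04 in Gm21082, 0.04 in Gm13157, 0.02 in Zfp429, -0.62 in Gm13152 and 1.00 in Zfp961, with a mean of 0.08 ± 0.58 (SD, n = 5). That mean did not differ from 0 (exact two-sided permutation test, p = 0.75, adjusted p = 0.912), in a design whose smallest possible p is 0.0625. The part of random read placement in the tag counts of Zfp961 was not tested.

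**Figure D4:**
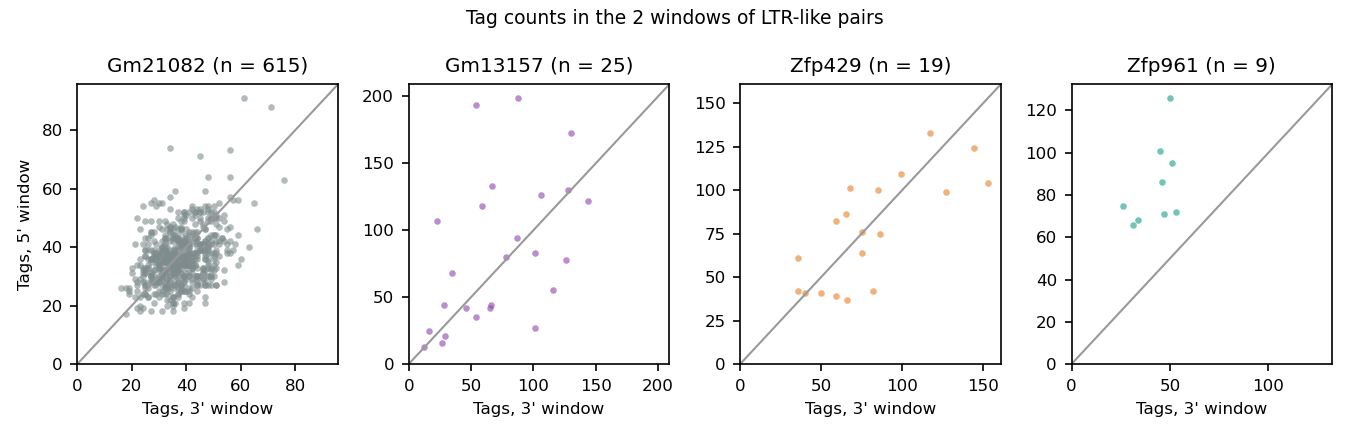
Tags in the 5′ window (y axis) against tags in the 3′ window (x axis) of LTR-like pairs with a strand, 1 point per pair and 1 panel per KRAB-ZFP; the grey line marks equal counts. Gm21082, Gm13157 and Zfp429 scatter around the line and all 9 Zfp961 pairs lie above it.

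Windows outside the pairs were examined next, since a provirus with a peak on only 1 LTR forms no pair. For each unpaired window the genome was searched 3000 to 9000 bp away for a second copy without a peak, and the same test of ends was applied. For Gm21082 this found 343 further elements with a window on 1 LTR beside the 616 with windows on both, so that 64.2% (61.1 to 67.2%) of 959 elements had both. The share was 80% (64.1 to 89.96%) for Gm13157, with 7 further elements, and 67.9% (49.3 to 82.1%) for Zfp429, with 9. For Zfp961 it was 19.6% (10.7 to 33.2%), with 37 further elements. In Gm21082 the single window was on the 5′ LTR in 168 and on the 3′ LTR in 174 elements, and its median of 34 tags was close to the 36.5 of the windows in pairs. In Zfp961 the single window was on the 5′ LTR in 32 elements and on the 3′ LTR in 1, the same direction as the tag counts of its pairs. These single-window elements of Zfp961 were on the plus strand in 17 and on the minus strand in 16 cases. Their LTRs had a median identity of 95.9%, against 100% in the 9 pairs.

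Further unpaired windows had a copy at that distance but were not counted as elements. They numbered 34 for Gm21082, 10 for Gm13157, 11 for Zfp429, 38 for Zfp961 and 20 for Gm13152. Their ends failed the test, which takes duplications of 5 or 6 bases only. In 3 cases of Gm13157 the copy instead held a window that was not consecutive. The remaining windows of these KRAB-ZFPs had no copy at that distance. They were 500 of 2211 windows (22.6%) for Gm21082, 316 of 443 (71.3%) for Gm13157, 180 of 254 (70.9%) for Zfp429, 1314 of 1457 (90.2%) for Zfp961 and 4906 of 5189 (94.5%) for Gm13152. In Gm21082, 128 of the 500 matched an LTR of its pairs over at least 90% of its length, and 59 of these had the same bases on both sides of the single copy, as a solitary LTR has after recombination between both LTRs. In Gm13157 there were 210 such full-length matches, 109 of them with the duplication, and in Zfp429 there were 14 and 10. Gm13157 thus had more single full-length copies than LTR-like pairs.

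Between the paired windows, other KRAB-ZFPs had peaks in many of the elements. A summit of another KRAB-ZFP lay between the windows in 613 of 670 Gm21082 pairs (91.5%, 89.1 to 93.4%), and in the flanks of the same length in 9.70% on average. The values were 81.8% and 6.36% in Gm13157, 77.8% and 5.56% in Zfp429, 38.2% and 5.88% in Zfp961, and 62.5% and 34.9% in Gm14419. In Gm14406 they were 5.74% and 5.33%, and in Gm13154 0% and 26.7%. Over the 16 KRAB-ZFPs with at least 10 pairs the share was 33.6% ± 29.2 (SD) between the windows and 16.8% ± 9.47 in the flanks, higher between them in 11 of 16, and the difference stayed short of the threshold (permutation test with sign flips, two-sided, p = 0.0651, adjusted p = 0.163).

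The other KRAB-ZFPs kept to fixed places. In the 616 LTR-like pairs of Gm21082, Gm14419 had a summit in the internal region of 542 (88.0%, 85.2 to 90.3%), Gm8898 in 358 (58.1%), Gm14401 in 110 (17.9%) and Gm14443 in 73 (11.9%). Flanks of the same length held a Gm14419 summit in 15 and a Gm8898 summit in 6. These 4 KRAB-ZFPs were assayed in ES cells with an HA antibody and Gm21082 in F9 cells with a FLAG antibody, so the libraries share neither cells nor control. Counted from the 5′ end of the element, the median summit of Gm14419 was at 431 bp (quartiles 416 and 454 bp), just inside the 5′ LTR, that of Gm14443 at 1726 bp and that of Gm8898 at 1917 bp (1882 and 1957 bp). Gm14401 was aligned to the other end, with a median of 1286 bp from the 3′ end (1266 and 1327 bp) while its distance from the 5′ end ranged over quartiles of 3847 and 5836 bp. Elements with a Gm21082 window on only 1 LTR held Gm14419 in 90.1% (86.5 to 92.8%) and Gm8898 in 58.0% (52.7 to 63.1%), close to the shares in elements with both.

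**Figure D5:**
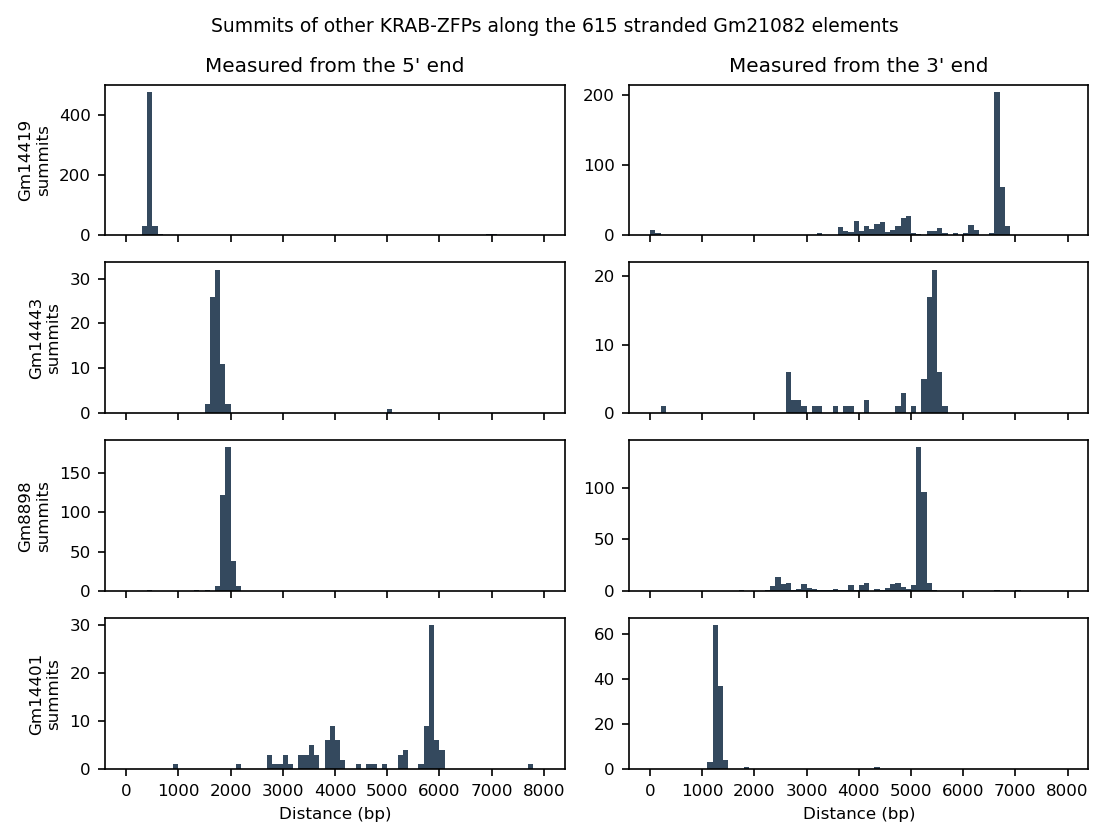
Number of summits of 4 other KRAB-ZFPs (rows) per 100 bp along the Gm21082 elements with a strand, by distance in bp from the 5′ end (left) and from the 3′ end (right). Gm14419, Gm14443 and Gm8898 form 1 narrow peak from the 5′ end, with medians of 431, 1726 and 1917 bp, and Gm14401 does so from the 3′ end, with a median of 1286 bp.

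The bands of spacing differed in which internal sites they held. Of the 304 Gm21082 elements spaced 6500 to under 7000 bp, 250 (82.2%, 77.5 to 86.1%) held a Gm8898 summit and 290 (95.4%) a Gm14419 summit. Of the 195 elements spaced 4250 to under 5500 bp, 29 (14.9%, 10.6 to 20.5%) held Gm8898 and 139 (71.3%) Gm14419. Gm14401 was found in similar shares of both, 51 of 304 (16.8%) and 39 of 195 (20.0%). In the shortest 68 elements, under 4250 bp, Gm8898 was found in 35 (51.5%) and Gm14419 in 67 (98.5%), and in the 48 at 5500 to under 6500 bp they were found in 43 and in all 48. The LTRs were identical in 76.4% of the elements at 4250 to under 5500 bp and in 64.5% of those at 6500 to under 7000 bp.

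In the 28 LTR-like pairs of Gm13157, Zfp808 had an internal summit in 26 (92.9%), and 23 Zfp808 summits in elements with a strand lay at a median of 1239 bp from the 5′ end (1073 and 1817 bp). All 19 Zfp429 elements held a Gm14419 summit, at a median of 574 bp (559 and 602 bp), again just inside the 5′ LTR, and 6 held Gm14401 at 1399.5 bp from the 3′ end. Of the 9 Zfp961 elements, 2 held a summit of any other KRAB-ZFP. Gm13150 was the only other KRAB-ZFP with summits on the LTRs of Gm21082 in more than 14 elements, with 24 (3.90%) and none in the internal region.

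The unrelated pairs had less in common. When pairs of one KRAB-ZFP were called alike where both windows matched those of another pair in the same arrangement and with spacing within 300 bp, 47 of 476 unrelated pairs (9.87%) fell into groups, counted in KRAB-ZFPs with at least 2 such pairs. Of these, 26 belonged to Gm14419 and 12 to Zfp961. Gm14419 had a group of 15 pairs at 6334 to 6636 bp on 10 chromosomes and one of 11 at 3778 to 4568 bp on 8 chromosomes. Of its 96 pairs, 21 lay within an element of Gm21082, 20 of them unrelated. In these 20 the upstream window stood at a median of 426 bp from the 5′ end (394 to 1472 bp). The downstream window stood at a median of 90 bp from the 3′ end (13 to 157 bp). These medians lie just past the 5′ LTR, of a median of 338 bp, and in the later part of the 3′ LTR. Such windows cover different parts of the element, so that few of their bases can align. Zfp961 had a group of 7 pairs at 5088 to 5175 bp on 6 chromosomes, and with windows of 600 bp 24 of its 34 pairs were related on the same strand and none on opposite strands, against 9 with 200 bp. No such group was found for Gm13225, Gm13251, Zfp457, Gm13235, Gm14412, Gm13154, Gm14401 and Zfp661, and Gm13152 had 2 alike among 120 and Zkscan17 had 2 among 29.

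Annotated genes were compared last. Of the 1424 pairs 321 (22.5%) lay within a protein-coding gene, and a window overlapped an annotated exon in 169 (11.9%). No share over all windows of the KRAB-ZFPs is given beside these, so whether they are high or low was not tested. Of the 679 LTR-like pairs 123 (18.1%) lay within a gene and 8 (1.18%) touched an exon, and of the other 745 pairs 198 (26.6%) and 161 (21.6%). Where element and gene both had a strand, 98 LTR-like elements were antisense to the gene and 23 sense (81.0% antisense, 73.1 to 87.0%). For Gm21082 the numbers were 87 and 22 (79.8%, 71.3 to 86.3%), and for Zfp429 5 and 1.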

How the data were processed

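ChIP-seq of 68 KRAB-ZFPs and 6 control samples is described by the labels. According to the labels and the study's methods, reads were mapped to mm9 with Bowtie or Bowtie2, with 1 pseudo-random location for reads fitting several places, and peaks were called per sample with MACS 1.4.2 and set to 200 bp around the summit. The authors deposited per peak the number of tags (raw counts), a score (the negative log10 of the p-value on a scale where 1 decade is 10 points), a fold enrichment (ratio over the local control) and a false discovery rate in percent. The name of 244 peaks matched no label and 1 label had no peaks, so neither was used. Starts were read as counted from 0, and coordinates are printed counted from 1.

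Windows were aligned with Biopython 1.88 (match 2, mismatch -3, gap open -5, extension -2) on NCBIM37, and gencode vM1 genes were used. The programs were tested on simulated proviruses and separate insertions. KRAB-ZFPs were the units of all tests, which were permutation tests (exact under 10 KRAB-ZFPs, otherwise with 100000 resamples) with Benjamini-Hochberg adjustment over 5 tests and a threshold of 0.05. Each KRAB-ZFP with at least 10 pairs or 3 same-strand pairs was named, and the pair with the highest summed score outside chromosome 18 was printed. Gm13150, Gm14443, Zfp46 and Zfp808 fall outside this rule; they were picked once their values had been seen. The pairs, measures and tests were chosen with earlier results of these data known. Nearly identical repeats can share or exchange reads and thus peaks. Alternatives were another peak filter, alignment length, identity, window size, use of windows and spacing, and leaving out Gm21082.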

Additional observations from a re-analysis of the deposited data

How the results depend on the processing

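Each result was recomputed with only peaks of a score over 100 and a fold over 20, with at least 50 aligned columns, with an identity of at least 90%, with windows of 600 bp, with each window in at most 1 pair, without Gm21082 and with a spacing of 4000 to 8000 bp. The number of LTR-like pairs stayed between 627 and 687 except without Gm21082, where it was 63, and the number of related pairs between 831 and 1004 except without Gm21082, where it was 282. The stricter peaks raised the difference in the share of related pairs to 12.6 percentage points over 11 KRAB-ZFPs, which then passed the threshold (permutation test, adjusted p = 0.0313), while the other alternatives gave adjusted p of 0.109 to 0.436. The difference between F9 and ES samples turned to -9.02 points with windows of 600 bp and to -3.30 without Gm21082, and had no value with the stricter peaks, which left fewer than 2 ES samples. The causes were not tested. Without the comparison of F9 and ES samples, the adjustment with the stricter peaks ran over fewer than 5 tests. The same-strand share and the peaks between the windows kept their direction and had adjusted p above the threshold in all 7 alternatives, with adjusted p of 0.0781 to 0.313 for the same-strand share and 0.0742 to 0.326 for the peaks between. For the same-strand share, the p of the main setting was already the smallest that its test could give. The tag ratio kept its direction too, but with 4 or 5 KRAB-ZFPs it could not pass the threshold. Samples could not be paired because each KRAB-ZFP had 1 sample and no replicate numbers to pair. The tests within KRAB-ZFPs were paired by KRAB-ZFP and compare distances or places rather than samples. The depth of the libraries was unknown, so a copy without a peak may be bound.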
